A study of Mus musculus with 29 samples.

Results

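Control co-cultures of embryonic cortical neurons with microglia were compared with control adult medial prefrontal cortex (mPFC), to describe how mature the cultured neurons were and which cell types of the cortex the culture lacked. Members were chosen by their labels alone, as the libraries of both systems that had received sc-control, a scrambled oligonucleotide without the targeting sequence of the microRNA inhibitor. They were 11 of the 29 libraries of the series. The 8 co-culture libraries came from cortical neurons of CD1 mouse embryos at embryonic day 17.5. Per the study, the neurons had been kept in culture for days before primary microglia were added. RNA was taken after a further time together, so the embryonic day is not the age of the neurons at sampling. These microglia were shaken off mixed glial cultures of pups at postnatal day 1, which had been grown in serum and medium conditioned by the L929 fibroblast line, and they received sc-control before the transfer. The 3 mPFC libraries each came from 1 male C57BL/6J mouse aged 3 months whose prefrontal cortex had been injected with sc-control in lipid nanoparticles and was later dissected on one side. Every library thus carried sc-control, but it reached isolated microglia in one system and a whole tissue in the other. Strain, age, sex make-up, culture, dissection and route of treatment all differed between the systems. Library preparation and sequencing run may have differed too, and the shares of all these in any difference cannot be told apart. Nothing in the labels says that the 8 co-cultures came from separate neuron preparations, so p-values measure the spread between these samples, which may be technical on the culture side.

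Cortical neurons that have left the cell cycle extend axons and dendrites with the help of growth-cone and microtubule proteins such as doublecortin and the collapsin response mediators, and later exchange many of their receptors, channels and transporters for adult forms. Adult cortex also holds myelinating oligodendrocytes, which form mostly after birth, and dissected tissue brings vessels, blood and meninges along. Microglia, the resident macrophages of the brain, keep their homeostatic genes active under signals from the surrounding tissue and are known to shift away from that state once isolated.

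The co-culture libraries held 24214958 to 37901110 counts assigned to genes and the mPFC libraries 28450652 to 36475236. Values are given as counts per 1000000 (CPM) of library sizes scaled by trimmed mean of M-values (TMM) factors, and for a co-culture gene as the lowest, the median and the highest of the 8 libraries, for mPFC as the libraries numbered 2, 3 and 4 in that order. A positive log2 fold change (log2FC) means a higher level in co-culture. The standard error beside a log2FC is derived from the test statistic and is too small where a group had few counts. Spearman's rho across genes was 0.9967 to 0.9981 between co-culture libraries, 0.9953 to 0.9971 between mPFC libraries and 0.9001 to 0.9056 between systems, as a description over genes that are not independent. In mPFC replicate 4 each of the 10 shared microglia and macrophage genes was highest and the summed striatal genes lowest, which is given beside the results it touches. In bulk RNA, fewer cells of a type and less RNA per cell cannot be told apart.

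At this depth nearly every gene differed: 15087 of 17678 genes tested (85.3%) had a Benjamini-Hochberg adjusted p under 0.05 in edgeR's quasi-likelihood test. Only large differences are therefore called here, meaning an adjusted p under 0.05 together with a log2FC of at least 2 in size, a fold of 4 or more. By this rule 945 genes (5.35% of those tested) were higher in co-culture and 1713 (9.69%) were lower, and the groups did not overlap for 2650 of the 2658. The median log2FC of all genes tested was -0.01, so the middle of the transcriptome was level at this scaling. When libraries were scaled instead to a list of pan-neuronal genes, that median moved by 0.777 and the share of calls that were higher in co-culture went from 35.6% to 65.9%, with 1985 genes higher and 1027 lower. Directions below are relative to all genes unless that other scaling is named.

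**Figure D1:**
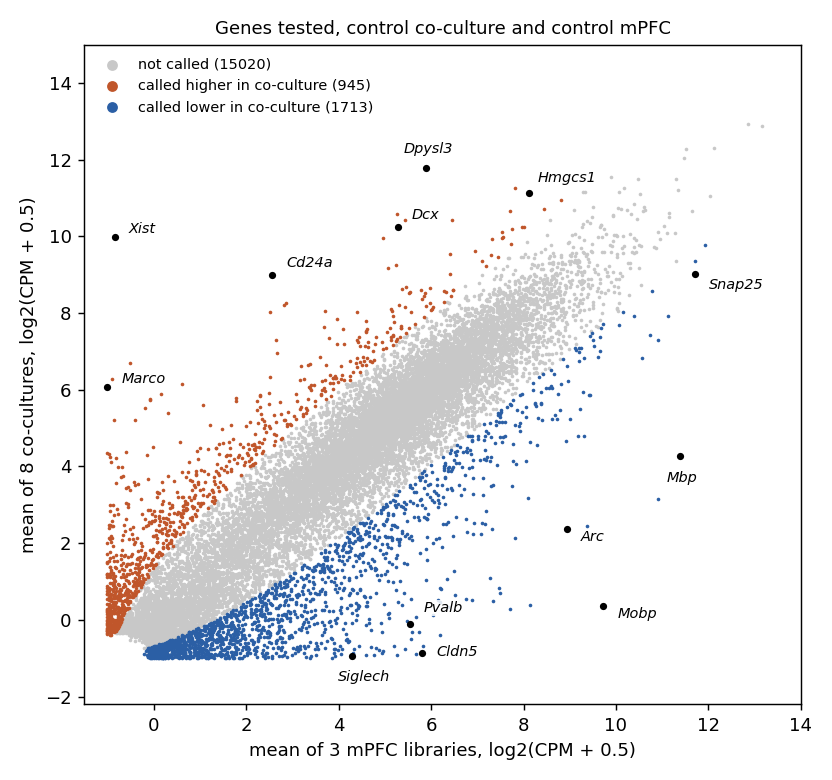
Every gene tested, with its mean over the 3 mPFC libraries on the horizontal axis and over the 8 co-cultures on the vertical axis, both as log2 of CPM plus 0.5; colours mark the called genes and names mark some of those described. The 945 genes higher in co-culture lie above the diagonal and the 1713 lower genes below it, with Marco and Xist far above and Mobp and Cldn5, genes of myelin and vessels, far below.

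The differences furthest from 0 fell into a few kinds of gene. By a rule on size and level, the 10 genes furthest above mPFC were Marco, Xist, Eno1b, Tuba1c, Dach2, Acod1, Cd24a, Draxin, Dpysl3 and B3gnt5, and the 10 furthest below were Klk6, Hbb-bs, Mobp, Igfn1, Cldn5, Opalin, Siglech, Ly6c1, Slc22a8 and Mgp. The lower genes hold a myelin protein, a haemoglobin chain, a tight junction protein of vessels and a microglial lectin, and 6 of the 10 are members of the cell type lists described below. Igfn1, an immunoglobulin-domain protein best known from muscle, is in none of these lists, with 0, 0.0321 and 0.0754 CPM in co-culture against 39.00, 37.4 and 38.2 CPM in mPFC. Slc22a8, an organic anion transporter of vessels and choroid plexus, measured 0, 0.0351 and 0.105 CPM against 23.8, 22.8 and 24.1 CPM. Among the higher genes, Cd24a encodes a surface glycoprotein of young neurons and Draxin a secreted guidance cue. Cd24a measured 490.4, 507 and 545 CPM against 5.32, 5.51 and 5.40 CPM (log2FC 6.56, standard error 0.053), and Draxin 54.9, 58.4 and 62.6 CPM against 0.588, 0.736 and 0.548 CPM (log2FC 6.55, standard error 0.09). Dach2, a transcription cofactor, was at 40.3, 45.9 and 50.1 CPM in co-culture and at 0.504, 0.175 and 0.462 CPM in mPFC. Eno1b and Tuba1c each have near-identical copies, so the assignment of their reads is uncertain: Eno1b was at 17.98 ± 1.70 against 0.0688 ± 0.0417 CPM (mean ± SD, n = 8 and n = 3), while Eno1, a glycolytic enzyme, was at 83.3 ± 7.87 against 177 ± 12.2 CPM. The 95 genes that were both named by rule and called had adjusted p-values between 1.77e-27 and 1.1e-06 in edgeR, and none of them overlapped between the groups. Both follow largely from the selection. A call needs a small p, part of the rule asks for groups apart, and 2650 of all 2658 called genes did not overlap.

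Lists of genes for cell types, synapses and cell states were then read as counts of called members and as medians. A list whose members match the background would have about 5.35% of them higher and 9.69% lower. In the plot by list, outgrowth, proliferation, thalamic and cholesterol synthesis genes had shares well above that on the higher side, and activity-induced, myelin, vessel and homeostatic microglial genes on the lower side. A count of 0 called in a direction is edgeR's at this limit, and DESeq2's Wald test called the same number higher and lower in each list except mature forebrain neurons, with 8 lower, and phagocytes, with 4 higher. Members beyond those named by rule were picked for mention after their values were seen.

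**Figure D2:**
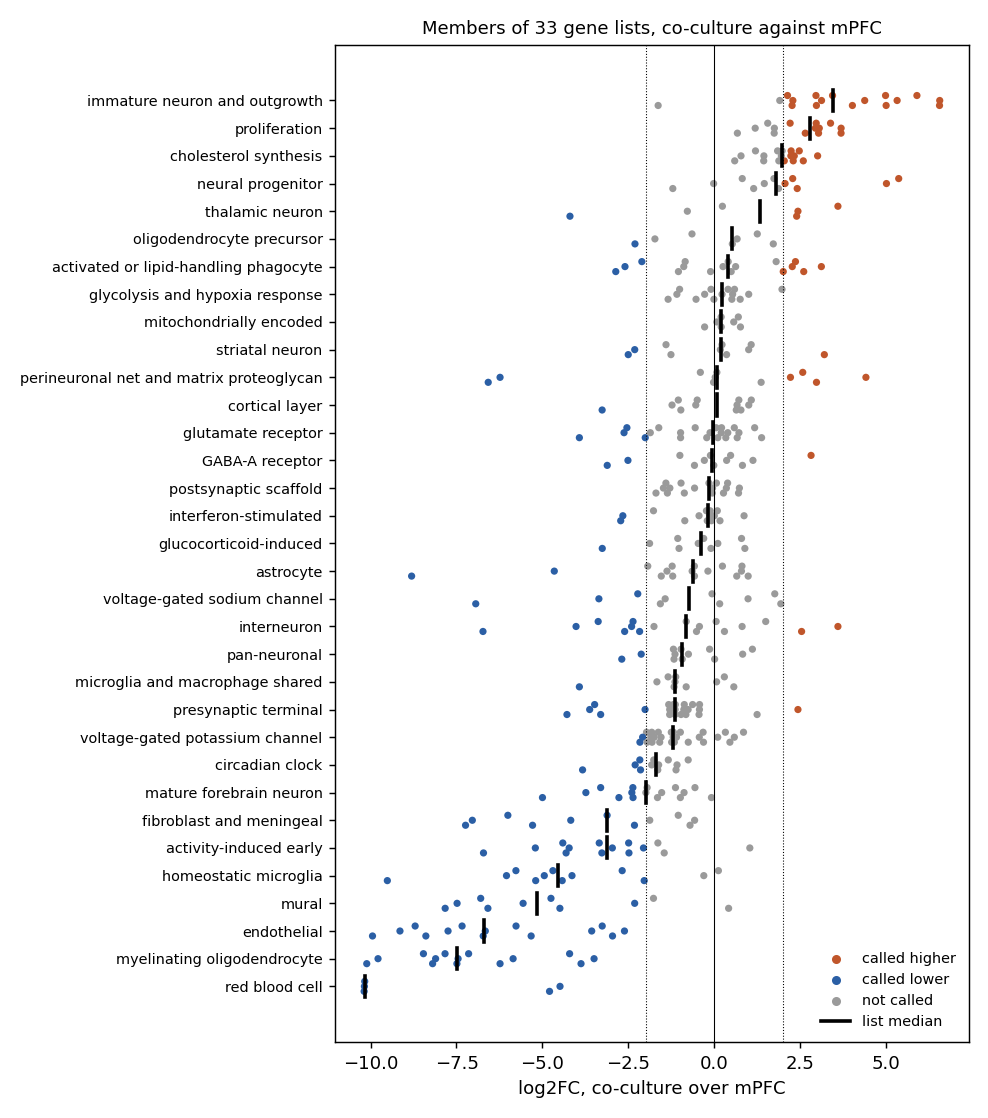
Each of 33 gene lists on a line of its own, with the log2FC of its members (co-culture over mPFC) as points and their median as a bar; colored points are called genes. The medians run from -10.17 for red blood cell genes to 3.44 for genes of immature neurons and outgrowth.

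Most genes that neurons express at any stage were not called. Of 12 pan-neuronal genes tested, 2 were called lower and 0 higher, with a median log2FC of -0.95. Snap25, a SNARE protein of synaptic vesicle fusion, measured 505, 521 and 528 CPM in co-culture against 3540.5, 2948 and 3530 CPM in mPFC (log2FC -2.69, standard error 0.039). Eno2, the neuronal enolase, was at 242, 259 and 286 CPM against 1152, 1205 and 1069 CPM (log2FC -2.13, standard error 0.043). The other 10 were not called, among them Syt1, the calcium sensor of release, with a log2FC of -1.19, and Map2, a dendritic microtubule protein, with 1.11. Neither Snap25 nor Eno2 was called when the libraries were scaled to the pan-neuronal list itself. Both genes are part of the sum behind that scaling, so the loss of their calls was partly built in. Snap25 had a mean of 3339 CPM in mPFC, where the list summed to 12896 to 13365 CPM.

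Genes of immature neurons and outgrowth were higher in co-culture almost throughout. Of 17 tested, 15 were called higher and 0 lower, with a median log2FC of 3.44, and their summed level was 16278 to 16786 CPM in the co-cultures and 1841 to 2017 CPM in mPFC. Dcx encodes doublecortin, which stabilises microtubules in migrating neurons. It measured 1178, 1203 and 1309 CPM in co-culture and 35.9, 39.9 and 39.5 CPM in mPFC (log2FC 4.98, standard error 0.05). Sox11, a transcription factor of newborn neurons, measured 251, 265 and 271 CPM against 14.8, 10.8 and 12.2 CPM (log2FC 4.38, standard error 0.064). Dpysl3, a collapsin response mediator of the growth cone, was at 3486, 3519 and 3551 CPM against 56.02, 60.5 and 60.8 CPM (log2FC 5.90, edgeR adjusted p = 1.81e-27). The tubulin genes Tubb2b and Tubb3 had log2FCs of 5.32 and 2.27, and Gap43, a protein of the growth cone membrane, had 2.29. In all of these genes the lowest co-culture library was above the highest mPFC library. The exceptions among the list were Stmn1, a tubulin-binding protein, at a log2FC of 1.91, and Tagln3, a calponin-related protein of neurons, at -1.63, neither of them called.

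Genes of mature forebrain neurons lay on the other side. Of 16 tested, 7 were called lower and 0 higher, with a median of -1.97. When scaled to the pan-neuronal list, 3 were called lower. Camk2a, a calcium-dependent kinase of excitatory synapses, measured 616, 655 and 671 CPM against 3506, 3311 and 3228 CPM (log2FC -2.36, standard error 0.029). Nrgn encodes neurogranin, which binds calmodulin in dendritic spines, and measured 99.6, 112 and 129.8 CPM against 1708, 1468 and 1371 CPM (log2FC -3.74, standard error 0.057). The largest difference of the list was in Lamp5, a membrane protein of synapses, with 7.73, 8.46 and 9.71 CPM in co-culture and 297, 266 and 262 CPM in mPFC (log2FC -5.00, standard error 0.05). At the other end was Neurod2, a transcription factor of excitatory neurons, whose groups overlapped (74.6, 83.5 and 88.4 CPM against 94.6, 78.9 and 88.95 CPM, log2FC -0.08, adjusted p = 0.133). The list therefore did not move as 1 block.

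For pairs of genes that are known to hand over during maturation, the log2 ratio of the counts of the adult to the early member was taken within each library. This ratio does not depend on library scaling, but in bulk RNA it can depend on which cell types are present. The part of cell type make-up in these ratios was not tested. In all 9 pairs reported here the ratio was higher in mPFC and the groups did not overlap. Each had p = 0.0121 in a two-sided exact permutation test (0.0121 after adjustment over the 10 pairs tested), the smallest p that 165 splits of 8 and 3 libraries can give. The excitatory vesicle loaders differed most. Slc17a7 (VGLUT1, the adult cortical form) over Slc17a6 (VGLUT2, the early and subcortical form) gave log2 ratios of 0.95, 1.15 and 1.19 in co-culture and 7.13, 6.94 and 6.54 in mPFC, a ratio 53.7-fold higher in mPFC. Both members contributed: Slc17a7 was at 165, 172 and 179 CPM against 1754, 1771 and 1571 CPM, and Slc17a6 was at 76.9, 77.8 and 85.3 CPM against 12.5, 14.4 and 16.9 CPM. Per kilobase of exon, the VGLUT1 gene was at 2.18 times the VGLUT2 gene in co-culture and at 117 times in mPFC.

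Sodium channel genes came next. Scn1a (Nav1.1) over Scn3a (Nav1.3, the embryonic channel) had log2 ratios of -1.81, -1.74 and -1.63 in co-culture and 1.69, 1.80 and 1.84 in mPFC, 11.3-fold apart. Per kilobase the order of the members was inverted, at 0.338 in co-culture and 3.83 in mPFC. Scn8a (Nav1.6, the adult channel of the axon initial segment) over Scn2a (Nav1.2) was 3.000-fold higher in mPFC, and Camk2a over Camk2b was 6.29-fold higher. For the NMDA receptor, Grin2a (the adult subunit) over Grin2b (the early one) gave -3.71, -3.61 and -3.50 in co-culture and -1.27, -1.53 and -1.26 in mPFC, 4.75-fold apart. How the ratio divides between its members depends on the scaling, with log2FCs of -1.86 for Grin2a and 0.39 for Grin2b with TMM factors and of -1.08 and 1.17 under the pan-neuronal scaling. For inhibition, the chloride exporter KCC2 (Slc12a5) over the importer NKCC1 (Slc12a2), whose balance sets whether GABA inhibits or excites, was 2.02-fold higher in mPFC, with log2 ratios of 2.16, 2.36 and 2.43 and 3.40, 3.53 and 3.13. In both systems the KCC2 gene exceeded the NKCC1 gene per kilobase, at 7.39 and 14.98 times.

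The remaining pairs differed less. Dlg4 (PSD-95) over Dlg3 (SAP102), scaffolds of the postsynaptic density, was 1.76-fold higher in mPFC. Actl6b over Actl6a, the neuronal and the progenitor subunit of the BAF chromatin remodeller, differed by 0.19 on the log2 scale. The heavy over the medium neurofilament chain, Nefh over Nefm, gave log2 ratios of -2.05, -1.96 and -1.81 in co-culture and -1.72, -1.77 and -1.71 in mPFC, 0.21 apart in the means, and the sign turned when 5 CPM was added to both genes. Neither of these small differences passed the test in the anti-miR-99b libraries (adjusted p = 0.717 and 0.111, exact permutation tests). Both single genes of that pair were lower in co-culture, with a log2FC of -2.77 for Nefh and -2.56 for Nefm.

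**Figure D3:**
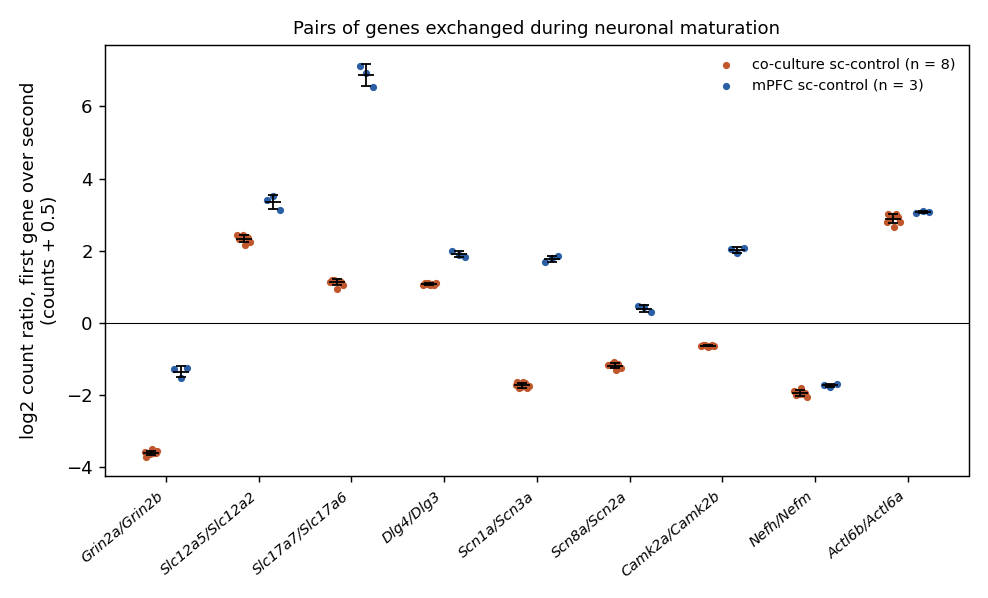
The log2 ratio of the adult over the early member of 9 gene pairs (counts plus 0.5) in each library, with 1 point per co-culture (n = 8) and per mPFC library (n = 3) and bars for the group mean and SD. mPFC lies above co-culture throughout, by 5.75 for Slc17a7 over Slc17a6 and by 0.19 for Actl6b over Actl6a.

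Synapse genes were read as 2 lists, postsynaptic and presynaptic, against a background of 9.69% lower and 5.35% higher. No postsynaptic scaffold gene was called among 17 tested in edgeR, although 14 had an unadjusted p under 0.05, and none was by DESeq2. Their median log2FC was -0.15, and 0.62 when scaled to the pan-neuronal list. Dlg1 (log2FC -1.70) and Dlg2 (0.27), which anchor receptors, stood on either side of 0. Of 23 presynaptic genes 5 were lower and 1, Slc17a6, was higher, and 21 log2FCs were below 0. The median was -1.13, and -0.36 when scaled to the pan-neuronal list. The active zone organisers Bsn (log2FC -1.14) and Pclo (-0.76) were not called. Syt2, the fast calcium sensor of many inhibitory terminals, measured 1.70, 2.27 and 2.58 CPM against 42.4, 43.7 and 45.9 CPM (log2FC -4.29, standard error 0.065). Cplx3, a complexin of deep-layer and subplate neurons, measured 1.17, 1.86 and 2.21 CPM against 24.3, 21.7 and 20.2 CPM (log2FC -3.62, standard error 0.10). Its relatives Cplx1 and Cplx2 had log2FCs of -1.30 and -0.43.

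Among 22 glutamate receptor genes tested, 4 were lower and 0 higher, and their median of -0.03 became 0.74 under the pan-neuronal scaling. The main AMPA subunits Gria1 and Gria2 had log2FCs of 0.34 and 0.58, not called. Grin2c, an NMDA subunit known from astrocytes and cerebellum, measured 3.09, 3.93 and 5.01 CPM in co-culture and 63.8, 58.6 and 56.7 CPM in mPFC (log2FC -3.92, standard error 0.07). Grm2, a presynaptic metabotropic receptor, measured 11.5, 12.97 and 13.7 CPM against 73.9, 90.3 and 72.5 CPM (log2FC -2.62, standard error 0.06). The others called were Gria3 (-2.01), just past the limit and not called without mPFC replicate 4 (-1.98) or co-culture replicate 8, and Grm8 (-2.54). Of 12 GABA-A receptor genes, 2 were lower and 1 higher, small counts that were not tested against the background. Among the lower ones was the extrasynaptic subunit Gabrd, at 7.39, 8.89 and 9.71 CPM against 82.00, 78.7 and 65.9 CPM. The gene called higher was Gabra2, at 367, 386 and 409 CPM against 54.9, 49.5 and 59.7 CPM (log2FC 2.82, standard error 0.05). C57BL/6J mice are known to carry a variant that lowers Gabra2, and the strain cannot be told apart from the system here. Nnt, another gene with a known C57BL/6J deletion, had a log2FC of 0.09.

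Ion channel genes were read as 2 lists, against a background of 9.69% lower. Of 27 voltage-gated potassium channel genes 2 were called lower, among them Kcnh4 (log2FC -2.16), near the limit, and the list had a median of -1.19; none was called under the pan-neuronal scaling. Kcna1 and Kcna2, which dampen axonal firing, had log2FCs of -1.97 and -1.82. Of 10 sodium channel genes 3 were lower, among them genes of beta subunits, which modify gating and adhesion. Scn4b measured 0.675, 0.942 and 1.29 CPM in co-culture against 149.7, 119 and 84.6 CPM in mPFC (log2FC -6.94, standard error 0.15), with the lowest mPFC library far above every co-culture. Scn2b had a log2FC of -2.23, and Scn3b, another beta subunit, had 0.98 and was not called. The median of the sodium channel list, -0.75, became 0.03 under the pan-neuronal scaling.

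Genes that neurons switch on within minutes of activity were low in co-culture. Of 14 tested, 11 were called lower and 0 higher, with a median of -3.12, and 8 were still called lower under the pan-neuronal scaling. Arc, a capsid-like protein that tunes synapses after activity, measured 3.91, 4.77 and 5.25 CPM in co-culture against 382, 483 and 611 CPM in mPFC (log2FC -6.71, standard error 0.10). The AP-1 factor Fosb measured 0.716, 0.824 and 0.947 CPM against 29.7, 29.6 and 33.9 CPM (log2FC -5.21, standard error 0.075) and Fos 6.69, 7.51 and 8.72 CPM against 65.7, 75.4 and 93.8 CPM (log2FC -3.35, standard error 0.082). The mPFC libraries differed among themselves in Arc and Fos, highest in replicate 4, but none came near the co-cultures. Egr1, an early-response zinc-finger factor, had a log2FC of -4.41 and the nuclear receptor Nr4a1 -4.31. Nr4a3, a close relative of Nr4a1, was on the other side of 0, at 99.5, 113 and 119.9 CPM against 51.2, 42.6 and 70.4 CPM (log2FC 1.04), a difference under the limit for a call.

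Many of these genes are known to be induced through CREB, which binds the cyclic AMP response element TGACGTCA. Of the 14 listed genes 10 had a RefSeq promoter (build GRCm38.p6, 250 bases before to 50 after the start), and 2 of the 10 held that palindrome, Btg2 and Dusp1, against 2.03% of the promoters of 27025 genes. Dusp1 encodes a phosphatase that shuts down MAP kinases and was lower in co-culture (10.5, 10.9 and 12.8 CPM against 49.2, 63.2 and 75.4 CPM, log2FC -2.48), while Btg2, an antiproliferative factor, had a log2FC of -1.46 and was not called. The stretch of the Dusp1 promoter that holds the element, at chr17:26508582-26508641 on the minus strand, is shown with the element in capitals, beginning 143 bases before the start.
Dusp1: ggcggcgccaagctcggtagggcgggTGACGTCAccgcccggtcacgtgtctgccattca
The match is a description of letters, and no match elsewhere says only that the window lacks them.

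Inhibitory neurons were present in both systems, but their subtype genes differed in both directions. Gad1 and Gad2, the enzymes that make GABA, had log2FCs of 0.30 and 0.06. Of 17 interneuron genes 7 were called lower and 2 higher, with 3 lower under the pan-neuronal scaling. Pvalb, the calcium buffer of fast-spiking basket cells, measured 0.289, 0.405 and 0.585 CPM in co-culture and 50.7, 44.2 and 44.03 CPM in mPFC (log2FC -6.73, standard error 0.092). Crhbp, a binding protein for corticotropin-releasing hormone, measured 1.28, 1.81 and 1.97 CPM against 27.8, 29.03 and 27.5 CPM (log2FC -4.02, standard error 0.075). The neuropeptides Sst (log2FC -2.40), Npy (-2.36), Vip (-2.17), Cort (-3.38) and Tac1 (-2.61) were also lower. On the higher side, Calb2, which encodes calretinin, measured 154, 161 and 169.6 CPM against 12.6, 13.7 and 13.6 CPM (log2FC 3.60, standard error 0.046), and Adarb2, a gene of interneurons from the caudal ganglionic eminence, 102, 106 and 116 CPM against 17.9, 17.99 and 19.3 CPM (log2FC 2.54, standard error 0.05). Lhx6, the lineage factor of Pvalb and Sst cells, was not called, at 39.6, 41.03 and 42.1 CPM against 24.9, 24.6 and 20.3 CPM (log2FC 0.81).

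Cortical layer factors went both ways. Of 12 tested 1 was called lower, a share near the background, and 0 higher, while all 12 had an adjusted p under 0.05, 6 above 0 and 6 below, with a median of 0.07. The one called was Fezf2, which specifies deep-layer projection neurons, at 5.94, 6.44 and 6.56 CPM against 60.1, 61.3 and 60.4 CPM (log2FC -3.26, standard error 0.041). Cux1 and Cux2, factors of upper layers, had log2FCs of 1.00 and -0.97, not called, and the deep-layer factors Bcl11b and Tbr1 had 0.72 and -1.05. Fezf2 was thus lower while its known downstream gene Bcl11b was not called.

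Genes of neighbouring regions were measured because a dissection can include them. Striatal genes spread widely among the 3 mPFC libraries, from a summed 239 CPM in replicate 4 to 390.3 in replicate 3 and 520 in replicate 2, against 281 to 295 CPM in the 8 co-cultures. Penk, the enkephalin precursor of indirect-pathway neurons, measured 11.3, 12.2 and 13.3 CPM in co-culture against 93.1, 73.5 and 40.6 CPM in mPFC (log2FC -2.50, standard error 0.14). Drd2, a dopamine receptor of the same cells, measured 7.30, 8.04 and 8.83 CPM against 6.50, 4.45 and 1.04 CPM, in the same order among the mPFC libraries and with a log2FC of 1.00, not called. Drd1 was lower (-2.31) and Six3, a striatal lineage factor, was higher (3.20, and 3.93 without mPFC replicate 2). Scn4b and the striatal genes shared the order of the 3 mPFC libraries, and the part of striatal tissue in that gene was not tested. Of 6 thalamic genes tested 3 were higher and 1 lower. The higher ones were Calb2, Slc17a6 and Lhx9 (log2FC 2.40), of which Calb2 is also on the interneuron list and Slc17a6 also in the pairs. Tcf7l2, a thalamic transcription factor, measured 4.54, 4.81 and 5.58 CPM against 3.95, 3.51 and 5.19 CPM with overlapping groups. Lef1, of habenula and thalamus but also of vessel walls, was lower (-4.20).

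Myelinating oligodendrocyte genes were far lower in co-culture. All 14 were called lower, with a median log2FC of -7.47, and their summed level was 74.1 to 84.7 CPM in the co-cultures and 6636 to 7107 CPM in mPFC. Mbp, a main structural protein of myelin, measured 17.7, 18.2 and 21.9 CPM against 2628, 2768 and 2667 CPM (log2FC -7.15, standard error 0.046). Mobp, a further myelin protein, measured 0.235, 0.626 and 1.40 CPM against 842, 842 and 852 CPM (log2FC -10.11, standard error 0.11), and Opalin, a membrane protein of the mature sheath, had 6 counts over the 8 co-cultures and 2626 over the 3 mPFC libraries. The smallest difference of the list was in Cnp, an enzyme that precursors already express (log2FC -3.50). Precursor genes, in contrast, had a median of 0.53. The growth factor receptor Pdgfra measured 157, 166 and 183 CPM against 50.7, 51.3 and 50.7 CPM (log2FC 1.72) and the proteoglycan Cspg4 28.2, 30.6 and 33.2 CPM against 20.4, 22.6 and 20.6 CPM (0.53), neither called. Gpr17, a receptor of cells about to differentiate, was called lower at 11.5, 14.8 and 20.8 CPM against 73.6, 70.4 and 86.7 CPM (log2FC -2.31, standard error 0.10). With TMM factors, precursor genes apart from Gpr17 thus lay within a fold of 4 of mPFC, on both sides of it. Under the pan-neuronal scaling Gpr17 lost its call. Of the 7 tested, 2 were then called higher, Pdgfra among them, and 0 lower.

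Cells of vessels, blood and meninges were likewise low. All 14 endothelial genes were lower (median -6.69), with a summed level of 16.7 to 19.8 CPM in the co-cultures and 421 to 480.1 CPM in mPFC. Cldn5, the tight junction protein of the blood-brain barrier, measured 0, 0.0452 and 0.164 CPM in co-culture and 62.2, 47.4 and 57.3 CPM in mPFC (log2FC -9.94). It had 12 counts over the 8 co-cultures. The VEGF receptor Flt1 measured 0.339, 0.851 and 1.04 CPM against 87.4, 75.2 and 84.6 CPM (log2FC -6.72, standard error 0.094). Of 10 mural genes 8 were lower. Rgs5, a regulator of G protein signalling in pericytes, measured 1.67, 1.88 and 2.18 CPM against 93.3, 79.7 and 97.8 CPM (log2FC -5.56, standard error 0.067). Kcnj8, a potassium channel of pericytes, had a log2FC of -7.48, and Higd1b had 1 count in co-culture against 191 in mPFC. Pdgfrb, the receptor that recruits pericytes, had a log2FC of -1.77 and Notch3, a receptor of arterial muscle, 0.42; these are the members that were not called.

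All 5 red blood cell genes were lower, with a median of -10.17 as fitted and -8.53 with Hba-a2 at its bound. Hba-a2, an alpha-globin gene, had 0 counts in the 8 co-cultures and was at least 369-fold lower than in mPFC, taking 3 counts over the group as the floor. Hbb-bs, a beta-globin gene, measured 0, 0.0366 and 0.113 CPM against 55.7, 44.9 and 50.4 CPM (log2FC -10.18, with 9 counts over the 8 co-cultures). Globin genes of adult type are among near-identical copies, so the split between members is uncertain. Of 11 fibroblast and meningeal genes 7 were lower, with a median of -3.12. Ptgds, the prostaglandin D synthase of the meninges that oligodendrocytes also express, measured 4.07, 5.04 and 5.69 CPM against 703, 640 and 636 CPM (log2FC -7.04, standard error 0.052). The fibrillar collagens Col1a1 (-2.32) and Col1a2 (-3.12) were lower and Slc47a1, a meningeal transporter, had a log2FC of -7.24. Dcn, a matrix proteoglycan, had -0.70 and was not called, so fibroblast genes were not missing altogether.

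Astrocyte genes were present in both systems. Of 16 tested 2 were lower, a share near the background, and 0 higher. The median of -0.61 became 0.16 under the pan-neuronal scaling. Gfap, the intermediate filament of reactive and fibrous astrocytes, measured 193, 204 and 206 CPM against 228, 292 and 426 CPM, highest in mPFC replicate 4, with a log2FC of -0.64. The water channel Aqp4 measured 197, 203 and 222 CPM against 105, 102 and 144 CPM (log2FC 0.81). Both called members were far from the rest: the gap junction gene Gjb6 (connexin 30, which appears late in development) measured 0.0322, 0.122 and 0.205 CPM against 60.7, 51.3 and 57.6 CPM (log2FC -8.81, standard error 0.11), while the other astrocytic connexin, Gja1, had a log2FC of -0.58. S100b, a calcium-binding protein of mature astrocytes and oligodendrocytes, measured 3.73, 4.58 and 4.69 CPM against 117, 102 and 110.2 CPM (log2FC -4.65, standard error 0.054). Slc1a3 and Slc1a2, the glutamate transporters known as early and late forms, had log2FCs of 0.79 and -1.93, neither called.

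**Figure D4:**
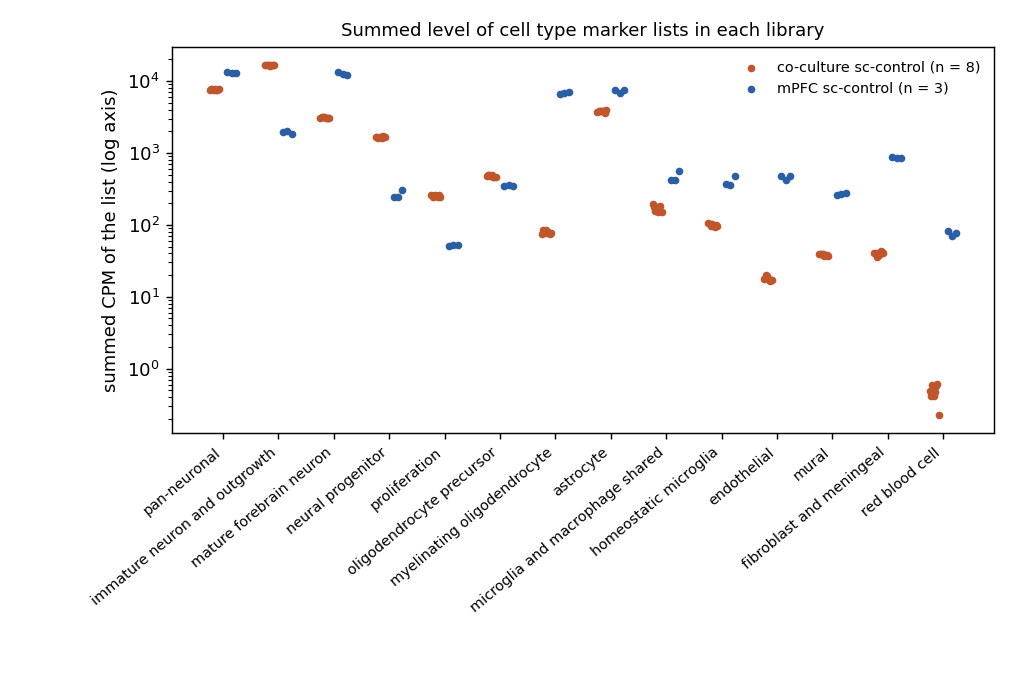
The summed level (CPM, log axis) of the marker genes of each cell type in every library, with 1 point per co-culture (n = 8) and per mPFC library (n = 3). Oligodendrocyte sums of 74.1 to 84.7 CPM in the co-cultures and 6636 to 7107 CPM in mPFC and endothelial sums of 16.7 to 19.8 CPM in the co-cultures and 421 to 480.1 CPM in mPFC are far apart, while astrocyte and precursor sums lie nearer each other.

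Microglia had been added to the neurons, and their shared macrophage genes were measured to check that label. Of 10 tested, 0 were higher and 1 lower, a share near the background. The list had a median of -1.13 and a summed level of 153 to 196 CPM in the co-cultures and 417 to 558 CPM in mPFC. Aif1, the actin-binding protein Iba1, measured 11.4, 12.6 and 15.1 CPM against 8.54, 7.43 and 9.95 CPM (log2FC 0.57) and the integrin Itgam 4.30, 4.69 and 5.63 CPM against 7.67, 7.26 and 10.4 CPM (-0.82), neither called. RNA of microglia or other macrophages was therefore detected in every co-culture. Csf1r, the receptor for the growth factor that keeps microglia alive, was the exception, at 7.69, 9.06 and 10.5 CPM against 128, 131 and 155 CPM (log2FC -3.92, standard error 0.061).

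Homeostatic microglial genes were far lower. Of 12 tested 10 were called lower and 0 higher, with a median of -4.56. The purinergic receptor P2ry12, with which microglia sense injury, measured 0.390, 0.617 and 0.803 CPM against 32.3, 25.4 and 40.9 CPM (log2FC -5.77, standard error 0.14) and P2ry13 0.157, 0.371 and 0.482 CPM against 12.9, 11.7 and 12.8 CPM (log2FC -5.20, standard error 0.13). Tmem119, a microglia-specific membrane protein, measured 0.260, 0.400 and 0.821 CPM against 28.7, 26.02 and 34.2 CPM (log2FC -6.04, standard error 0.14). The lectin Siglech had 5 counts over all 8 co-cultures and 1879 over the 3 mPFC libraries (log2FC -9.51), so its fold is only loosely known. Fcrls, at 30.9, 34.1 and 36.96 CPM against 33.9, 37.03 and 53.5 CPM with overlapping groups, and Sall1, a factor that neural progenitors also express, were not called (log2FC -0.30 and 0.12). For comparison, the complement gene C1qa and the adaptor Tyrobp, from the shared list, had log2FCs of -1.17 and -1.34.

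Phagocyte genes split. Of 17 tested 5 were higher and 3 lower. The scavenger receptor Cd36, which takes up oxidised lipids, measured 6.12, 7.07 and 7.88 CPM against 0.672, 0.842 and 0.952 CPM (log2FC 3.12, standard error 0.13), and Msr1, another scavenger receptor, 3.12, 4.26 and 5.47 CPM against 0.392, 0.806 and 0.894 CPM (log2FC 2.60, standard error 0.21). Lpl, Lyz2 and Ms4a7 were the other higher members (2.27, 2.01 and 2.36), and Lyz2 lay at the limit, losing its call without mPFC replicate 2 (1.71) or 3 or without co-culture replicate 1, 2 or 11. Mrc1, the mannose receptor of border macrophages (-2.60), Itgax, the integrin CD11c (-2.87), and Clec7a, a receptor for fungal glucans (-2.11), were lower. Without mPFC replicate 4 Itgax was at -2.11 and Clec7a at -1.26, no longer called. Spp1 and Gpnmb, secreted and membrane proteins of lipid-laden phagocytes, had overlapping groups, with mPFC values of 9.88, 7.68 and 21.3 CPM and 5.88, 11.8 and 21.7 CPM that were highest in replicate 4. Gfap was highest in that mPFC library too.

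Marco, a scavenger receptor of macrophages that clear particles and bacteria, set the co-cultures apart from all mPFC libraries. It lies at chr1:120474538-120505024 on the minus strand (mm10) and measured 55.7, 66.1 and 75.5 CPM in co-culture, with 0 counts in each of the 3 mPFC libraries. Taking 3 counts over the mPFC group as the floor, it was at least 2193-fold higher in co-culture. Acod1, the enzyme that makes itaconate in activated macrophages, measured 11.5, 12.99 and 14.04 CPM against 0.0280, 0.175 and 0.202 CPM (log2FC 6.58, with 13 counts over the 3 mPFC libraries). B3gnt5, a glycosyltransferase of lacto-series glycolipids, measured 38.3, 40.99 and 46.1 CPM against 0.784, 0.666 and 0.779 CPM (log2FC 5.78, standard error 0.10). Of 14 interferon-stimulated genes 2 were lower, Ifit3 (-2.66) and the regulator Irf7 (-2.72), and none was higher. The RNA-binding effector Ifit1 measured 4.06, 5.58 and 8.22 CPM against 5.94, 3.79 and 8.89 CPM with overlapping groups. The median of that list was -0.17, and 0.61 under the pan-neuronal scaling. Zbp1, the nucleic acid sensor that the study follows, was low in both systems, at 0.195, 0.514 and 0.587 CPM against 1.40, 1.26 and 1.99 CPM (log2FC -1.77, not called).

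**Figure D5:**
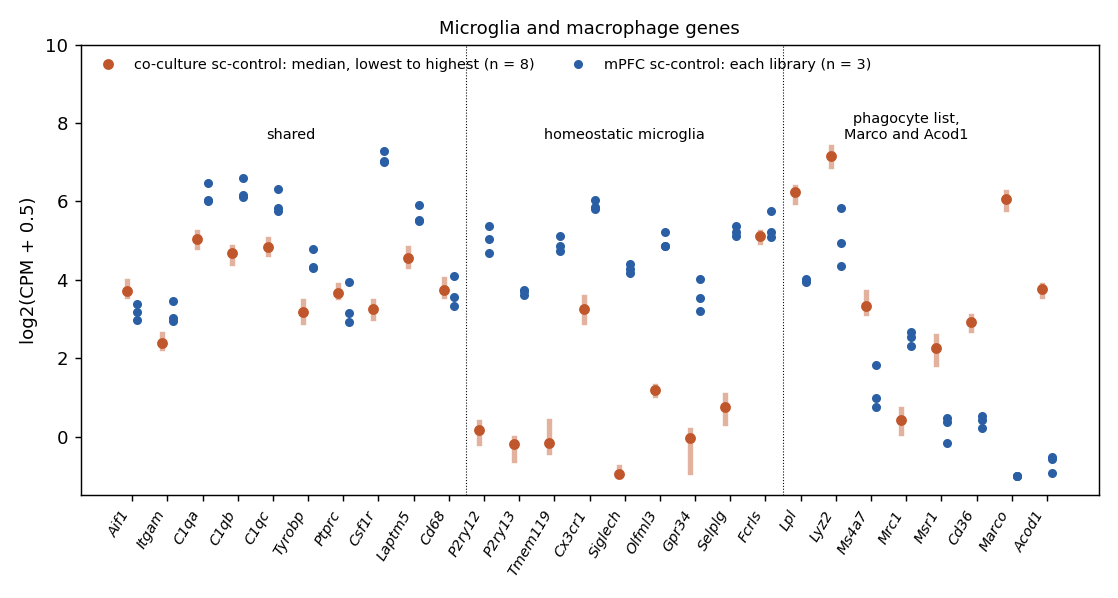
The level of shared microglia and macrophage genes, homeostatic microglial genes and phagocyte genes (log2 of CPM plus 0.5), with the median and the range from lowest to highest of the co-cultures (n = 8) and 1 point per mPFC library (n = 3). Marco and Acod1 are high in all 8 co-cultures and at or near 0 in mPFC, whereas Siglech, Tmem119 and P2ry12 show the opposite and Aif1 is close in both.

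Dividing cells and progenitors were read next. Of 14 proliferation genes 9 were higher in co-culture and 0 lower, with a median of 2.80. Mki67, the Ki-67 antigen of cycling cells, measured 43.5, 46.8 and 49.9 CPM against 4.93, 3.58 and 4.79 CPM (log2FC 3.38, standard error 0.071), and Top2a, which untangles chromosomes, 53.5, 57.9 and 60.2 CPM against 4.17, 3.86 and 5.28 CPM (log2FC 3.69, standard error 0.069). The mitotic checkpoint kinase Bub1 had the second largest difference (3.69). The replication genes Mcm2, Mcm5 and Pcna, which are also used outside mitosis, had log2FCs of 1.56, 1.19 and 0.67 and were not called. Of 12 progenitor genes 5 were higher. Fabp7, the fatty acid binding protein of radial glia, measured 945, 984 and 1019 CPM against 27.2, 31.5 and 33.4 CPM (log2FC 5.01, standard error 0.057). Eomes, the factor of intermediate progenitors of excitatory neurons, measured 7.04, 7.74 and 8.37 CPM against 0.168, 0.140 and 0.231 CPM (log2FC 5.37, standard error 0.16). The intermediate filament Nes had a log2FC of 2.28, and Sox2, which adult astrocytes also express, 0.81 and no call. Which cells of the culture divided, neural or microglial, was not tested.

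The matrix around neurons was of another make-up. Of 11 genes 4 were higher and 2 lower. Tenascin C (Tnc), a glycoprotein of the embryonic matrix, measured 121, 123 and 132 CPM against 5.96, 5.65 and 5.89 CPM (log2FC 4.41, standard error 0.05) and versican (Vcan) 184, 188 and 209 CPM against 24.2, 22.5 and 25.7 CPM (log2FC 2.98, standard error 0.049). The link proteins differed in direction: Hapln1 was higher (2.22), while Hapln4, which sits at inhibitory synapses and nodes, measured 1.13, 1.55 and 2.30 CPM against 155, 162 and 149 CPM (log2FC -6.58, standard error 0.071) and Hapln2, the nodal form made by oligodendrocytes, had -6.23. Aggrecan (Acan), the core of perineuronal nets, measured 3.78, 4.14 and 4.68 CPM against 3.67, 4.45 and 3.81 CPM with overlapping groups, and brevican (Bcan) had a log2FC of -0.40. Acan was not called where Pvalb, a gene of the cells that nets surround, was lower.

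Cholesterol synthesis genes were higher in co-culture as a group. Of 17 tested 8 were called higher and 0 lower, all 17 log2FCs were above 0, and the median was 1.98. Hmgcs1, which makes HMG-CoA, measured 2123, 2224 and 2359 CPM in co-culture and 279.9, 283 and 267 CPM in mPFC (log2FC 3.01, standard error 0.04). Nsdhl, a sterol dehydrogenase, measured 159.7, 167 and 173 CPM against 29.03, 28.9 and 25.2 CPM (log2FC 2.59, standard error 0.045). Sc5d, a desaturase of a late step, had a log2FC of 0.78.

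These genes are known targets of SREBP-2, which binds sterol regulatory elements together with NF-Y at CCAAT boxes. A RefSeq promoter window was at hand for 11 of the 17 genes. All 11 held CCAAT on either strand, as did 41.1% of the promoters of 27025 genes, and 1 of the 11, Hmgcs1, held the element CACCCCAC on either strand, against 3.3% of those promoters. The Hmgcs1 stretch, at chr13:119690189-119690248 on the plus strand of GRCm38.p6, is shown because it is the member with the largest difference, with the element in capitals beginning 136 bases before the start.
Hmgcs1: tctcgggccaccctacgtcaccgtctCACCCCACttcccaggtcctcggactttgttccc
The counts describe letters in a window and say nothing of binding.

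Energy metabolism genes went both ways by less than the limit. No gene of glycolysis or the hypoxia response was called among 15 in edgeR or DESeq2, although 13 had an unadjusted p under 0.05 and 12 an adjusted one, with log2FCs from -1.34 to 1.97. The glucose transporter Slc2a1, of vessels and astrocytes, had a log2FC of -1.34 and the kinase Pgk1 0.53. Hk2, the hexokinase of growing cells, came closest to a call at 17.98, 29.2 and 36.2 CPM against 6.38, 6.17 and 8.43 CPM (1.97). It was called higher under the pan-neuronal scaling, with the replicate block, in the anti-miR-99b libraries and without mPFC replicate 4 (2.13) or co-culture replicate 5, 8 or 12. No mitochondrially encoded gene was called among 7 tested in edgeR or DESeq2, although 6 had an unadjusted p under 0.05. The genes mt-Nd1 and mt-Nd2, subunits of complex I, had log2FCs of 0.20 and 0.57. The summed level of the mitochondrially encoded list, almost all of it from the 7 tested genes, was 33398, 24224 and 33306 CPM in the mPFC libraries, lowest in replicate 3. The other 6 of the 13 listed genes, mt-Co2, mt-Atp8, mt-Atp6, mt-Co3, mt-Nd3 and mt-Nd4l, were listed at or near 0 in both systems. Whether their reads were lost in mapping or counting was not tested, so these values are not read as expression.

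Some clock genes were lower in co-culture, while hormone-induced genes were called about as often as the background. Of 12 circadian genes 4 were lower and 0 higher (median -1.70), and 1 under the pan-neuronal scaling. The output factor Hlf measured 14.9, 16.1 and 17.2 CPM against 234, 201 and 253 CPM (log2FC -3.83, standard error 0.052) and Npas2, a partner of BMAL1, 10.8, 11.8 and 12.6 CPM against 61.8, 58.9 and 52.9 CPM (log2FC -2.30, standard error 0.05). Dbp, another output factor, had a log2FC of -2.14 and Per1, a core repressor, -1.76 and no call. Of 10 glucocorticoid-induced genes 1, the lipid droplet gene Plin4 (-3.26), was lower and 0 higher, a share near the 9.69% of all genes tested. Fkbp5 and Sgk1, which stress hormones induce, had log2FCs of 0.10 and -0.31, and neither was called.

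Sex make-up and strain also differed between the systems. Xist, the RNA that silences the second X chromosome, measured 969, 1003 and 1077 CPM in co-culture against 0.0840, 0.0351 and 0.0577 CPM in the male mPFC (log2FC 13.93). It had 6 counts over the 3 mPFC libraries. Ddx3y, a Y-linked helicase, measured 30.8, 32.9 and 35.9 CPM against 43.1, 37.6 and 40.8 CPM (log2FC -0.30). The 4 Y-linked genes had log2FCs between -0.47 and -0.09. RNA of an inactive X and of a Y chromosome was thus detected in every co-culture. Pseudogenes made up 2.91% of the genes tested, 17.5% of those higher in co-culture and 2.57% of those lower. The co-culture neurons were from CD1 mice and the reads were aligned to a C57BL/6J reference, and strain cannot be told apart from the system for these genes.

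The same contrast could be read in 10 libraries that share none with those above, 7 co-cultures and 3 mPFC samples treated with the anti-miR-99b inhibitor in the same systems. There 930 genes (5.23%) were higher in co-culture and 1861 (10.5%) were lower. Of the 945 genes called higher in the control libraries 817 (86.5%) were called higher there too, and of the 912 tested there 1 had the opposite sign. Of the 1713 called lower, 1559 (91%) were called lower there, and none of the 1657 tested had the opposite sign. The inhibitor libraries carry the same differences in strain, age and handling, so they repeat the contrast of the systems and not of a single factor.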

How the data were processed

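Poly-A RNA libraries (TruSeq) were sequenced as single reads on an Illumina HiSeq by the authors. Per the submitters' processing notes, reads were handled with bcl2fastq 2.20.2, FastQC 0.11.5, STAR 2.5.2b (mm10) and featureCounts 1.5.1. The values deposited by the authors are raw counts of reads per gene without normalization. The annotation release and the strand setting of the counting are not given in the sources used here, so overlapping genes and near-identical copies are uncertain.

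Both tables held the same 48709 Ensembl identifiers, of which 48349 were given a symbol and coordinates from GENCODE M21 (GRCm38). The 11 sc-control libraries were joined and fitted together with edgeR 4.0.16 in R 4.3.3: genes were filtered by filterByExpr (17678 kept), library sizes scaled by TMM factors, and the groups compared by the quasi-likelihood test with Benjamini-Hochberg adjustment. A call needed an adjusted p under 0.05 and a log2FC of at least 2 in size. The fit was tested on simulated data. Depth was 24214958 to 37901110 counts per library, and intervals and floors cover counting error only. A gene at 0 in a group was set against 3 counts over the group.

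Gene pairs were compared by the log2 ratio of counts plus 0.5 within a library and a two-sided exact permutation test. Lists were described by counts and medians, without a set test. Members and lists were chosen with earlier results of these data known. The rule for named genes took the 10 largest log2FCs in each direction among called genes of at least 10 CPM in the higher group whose groups do not overlap, the first 2 members of each list, its called members with the 2 largest log2FCs in each direction, the pair genes, and the gene with the smallest p in each direction. It gave 146 genes. Other list members were named after their values were seen. Some genes and 1 gene pair are not reported here.

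Co-culture and mPFC libraries share the numbers 2 and 4. Libraries of equal number did not deviate together (correlations of 0.0028 and -0.061), and no label says that a number marks a shared source. Co-culture libraries differed from each other by more than sampling noise (chi-square per degree of freedom 1.48 to 6.34 over 28 pairs). Between the 3 mPFC libraries, each from 1 mouse, it was 7.51 to 16.5. Each co-culture was counted as 1 sample, but this spread cannot tell separate preparations from technical replicates. Alternatives were DESeq2 1.42.0, other size factors, no filter on low counts, other fold limits, leaving out each library, co-cultures of lanes 6 and 7 alone, a replicate block and the anti-miR-99b libraries. Pair ratios of CPM plus 0.5 or plus 5 were added after seeing the data.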

Additional observations from a re-analysis of the deposited data

Results flagged for a closer look

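Of 191 values looked at over the 8 co-cultures, 7 had a sample whose gap to the nearest other, divided by the range, passed Dixon's critical value, and chance alone gives about 1 in 20. Several rest on single reads. Klk6, a protease of myelinating oligodendrocytes, was at 0.0325 CPM in co-culture replicate 4 and at 0 in the others, and Higd1b, a pericyte gene, was at 0.0325 CPM in the same replicate and at 0 elsewhere. Hbb-bt, a beta-globin gene, was at 0.0262 CPM in replicate 11 and at 0 in the others. Siglech, the microglial lectin, was at 0.0821 CPM in replicate 5, with the others between 0 and 0.0383. The mean log2(CPM + 0.5) of the red blood cell list was -0.88 in replicate 12 and -0.80 to -0.73 in the others. At high counts, replicate 6 stood apart in the proteoglycan Vcan, with 209 CPM against 184 to 193 in the others, and in Actl6b, the neuronal BAF subunit, with 101 CPM against 112 to 115. None of these gaps approached the distance of the 8 co-cultures from mPFC in the same gene, except Actl6b, whose log2FC was 0.21.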

How the results depend on the processing

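The count of genes higher and lower in co-culture depended on the scaling, the filter on low counts and the limit. It was 1985 and 1027 when scaled to the pan-neuronal list, 1712 and 3159 with no filter on low counts, 2592 and 3607 at a log2FC limit of 1, and 422 and 886 at a limit of 3. Leaving out each library in turn gave 922 to 1008 higher and 1693 to 1761 lower. DESeq2 gave 946 and 1743. The fit with a replicate block, on the 4 libraries that share a number, gave 924 and 1836; since the numbers pair nothing, this is a check of the calls alone.

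No named gene reversed in any of 22 alternatives, in 3142 comparisons that stayed on the same side of the limit, 50 that lost the call and 20 that gained it. Among the lost were Eno2 (block and anti-miR-99b libraries), Drd1 (anti-miR-99b libraries) and 18 genes under the pan-neuronal scaling.

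Lane numbers 6 and 7 occur in both systems, but no label says that they mark a shared run. In addition, 4 sample sheet positions occur in both systems, so a subset by lane cannot show that the run was matched. With co-cultures of lanes 6 and 7 alone (3 against 3), an exact permutation test cannot go below p = 0.1, and each of the 9 pairs had p = 0.1. The co-culture minus mPFC differences were then -2.24 for Grin2a/Grin2b, -1.03 for Slc12a5/Slc12a2, -5.75 for Slc17a7/Slc17a6, -0.82 for Dlg4/Dlg3, -3.52 for Scn1a/Scn3a, -1.61 for Scn8a/Scn2a, -2.65 for Camk2a/Camk2b, -0.25 for Nefh/Nefm and -0.16 for Actl6b/Actl6a. In the anti-miR-99b libraries Nefh/Nefm was -0.15 and Actl6b/Actl6a -0.039, neither past the test (adjusted p = 0.111 and 0.717, exact permutation tests). With ratios of CPM plus 5, chosen after seeing the data, Nefh/Nefm reversed to 0.10 and Actl6b/Actl6a was -0.089 (adjusted p = 0.0269 and 0.17, exact permutation tests). Before the 5 CPM was added, Nefh had means of 11.0 CPM in co-culture and 75.0 CPM in mPFC. The cause of the reversal was not tested. With CPM plus 0.5, also chosen after seeing the data, no pair lost its call, and the other 7 pairs kept direction and call in every other alternative.

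The effect of depth was not tested by thinning the counts. A gene with a handful of counts in one system has no reliable fold, and 3 mPFC libraries leave its spread loosely known.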

Other observations

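Few genes were on in one system and off in the other. With a level of at least 10 CPM in every library of one system and under 0.1 CPM in every library of the other as the limit, 5 of 9991 genes that reached that level in mPFC were off in co-culture, namely Igfn1, Opalin, Siglech, Ly6c1 and 1700047M11Rik. In the other direction there were 8 of 9731, namely Marco, Xist, 4 genes with predicted-gene names and the ribosomal protein pseudogenes Rpsa-ps10 and Rps2-ps13. These were found after the values were seen, and pseudogene counts can come from reads of their parent genes.

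Among the co-cultures, interferon-stimulated genes varied more than most lists. Their summed level ranged from 58.0 to 111 CPM over the 8 co-cultures, a coefficient of variation of 19.1%, against 9.20% for shared microglial genes and 0.925% for outgrowth genes. The red blood cell list, at under 1 CPM in sum, varied by 26.2%. Oasl2, a relative of the oligoadenylate synthetases, ran from 7.67 to 21.5 CPM. In mPFC the sums were 98.4, 76.8 and 150 CPM, highest in replicate 4, where the macrophage genes were highest as well. Glycolytic genes also varied between cultures: the hexokinase Hk2 ran from 17.98 to 36.2 CPM and Ldha, the lactate dehydrogenase, from 420.3 to 560.2 CPM.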
